A study of Mus musculus with 14 samples.

Results

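The metallothionein genes Mt1, Mt2 and Mt3 were followed in Nestin-GFP cells of the adult mouse dentate gyrus that had been separated into 3 classes of reactive oxygen species (ROS) signal. They are the 3 rows of the deposited table whose Ensembl identifiers map to these symbols, out of 15119 genes in all. They were chosen by name, not by a measured value, though earlier results of these data were known. All 3 passed the filter on low values. The fourth gene of the mouse cluster, Mt4, was not analysed here.

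All cells came from B6.Cg-Tg(Nes-EGFP)1Yamm mice, in which Nestin regulatory elements drive enhanced green fluorescent protein (GFP), and no mouse was treated. Cells were freed from the dissected dentate gyrus with enzymes and sorted by GFP and by dihydroethidium, which becomes fluorescent when oxidised. The classes are GFP+ROS+ with 5 libraries, GFP+ROS++ with 5 and GFP+ROS+++ with 4, written ROS+, ROS++ and ROS+++ here. The labels call the mice adult without an age, and do not say whether libraries of a class came from separate animals or pools, so that p-values measure the spread between these libraries, which may be technical. GFP reports the transgene and not a cell type, and the dye signal defines the class.

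Metallothioneins are small cysteine-rich proteins that hold zinc and copper ions in clusters of thiolate sulphur. They buffer free zinc, bind copper and cadmium, and their thiols react with oxidants, which can release the bound zinc. Mt1 and Mt2 are made in most tissues and are induced by zinc through the transcription factor MTF-1, and also by glucocorticoids, cytokines of the interleukin-6 family and oxidants. Mt3 is found mainly in the nervous system and is known as growth inhibitory factor. In brain, Mt1 and Mt2 are known chiefly from astrocytes, while Mt3 has been described in astrocytes and in neurons that hold zinc in synaptic vesicles.

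The coding sequences are shown because they carry the feature that defines the family. Each is the coding part of the main transcript in GENCODE mouse annotation M21, build GRCm38, plus strand of chromosome 8, with every cysteine codon in capitals. From first to last coding base, and with introns between, they lie at chr8:94179311-94180190 for Mt1, chr8:94172848-94173424 for Mt2 and chr8:94152800-94154007 for Mt3.
Mt1: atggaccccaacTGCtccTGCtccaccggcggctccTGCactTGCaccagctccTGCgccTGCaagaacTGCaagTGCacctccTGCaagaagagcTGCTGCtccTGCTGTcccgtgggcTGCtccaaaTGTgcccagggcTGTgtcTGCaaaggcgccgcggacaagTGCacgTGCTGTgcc
Mt2: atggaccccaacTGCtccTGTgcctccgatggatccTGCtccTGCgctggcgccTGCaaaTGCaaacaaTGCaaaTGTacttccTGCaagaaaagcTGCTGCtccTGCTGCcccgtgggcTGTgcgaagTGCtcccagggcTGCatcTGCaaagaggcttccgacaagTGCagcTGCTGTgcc
Mt3: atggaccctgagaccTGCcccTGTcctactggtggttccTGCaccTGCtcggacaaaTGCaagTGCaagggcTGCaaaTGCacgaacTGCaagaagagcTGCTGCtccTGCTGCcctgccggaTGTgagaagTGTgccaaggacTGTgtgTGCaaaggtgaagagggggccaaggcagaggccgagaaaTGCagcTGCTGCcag
Each holds 20 cysteine codons and no codon for histidine or an aromatic residue. Cysteine takes 32.8% of the 61 codons of Mt1 and of Mt2, and 29.4% of the 68 codons of Mt3. Each sequence has 7 places where cysteine codons are separated by 1 other codon and 3 where they are adjacent. Mt1 and Mt2 are identical at 79.2% of aligned coding bases, Mt3 and Mt1 at 73.2%, and Mt3 and Mt2 at 74.9%. Mt3 has 21 coding bases without a partner in the other 2. The longest run of identical bases between any pair of main transcripts was 27, so that a read longer than this is not the same in both.

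The genes lie side by side on chromosome 8, all on the plus strand and each with 3 exons in its main transcript. In GRCm38 coordinates Mt3 (ENSMUSG00000031760) spans chr8:94152607-94154146, Mt2 (ENSMUSG00000031762) spans chr8:94172664-94173568, and Mt1 (ENSMUSG00000031765) spans chr8:94179082-94180327. The cluster from the start of Mt3 to the end of Mt1 covers 27721 bases. An antisense gene, Gm45774 on the minus strand at chr8:94170748-94173412, covers 355 bases, or 69.5%, of the main transcript of Mt2. The libraries keep no record of strand, so that reads of Mt2 and of Gm45774 cannot be told apart there, and the level of Mt2 is uncertain to that extent.

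The bases just before the start sites are shown because the 3 genes moved together between the classes. Each sequence is the 250 bases before the start in the RefSeq promoter table of GRCm38.p6, at chr8:94178839-94179088 for Mt1, chr8:94172368-94172617 for Mt2 and chr8:94152357-94152606 for Mt3. Capitals mark the letters of the metal response element core, which MTF-1 is known to bind, written here as TGCACNC or TGCGCNC and searched on both strands.
Mt1: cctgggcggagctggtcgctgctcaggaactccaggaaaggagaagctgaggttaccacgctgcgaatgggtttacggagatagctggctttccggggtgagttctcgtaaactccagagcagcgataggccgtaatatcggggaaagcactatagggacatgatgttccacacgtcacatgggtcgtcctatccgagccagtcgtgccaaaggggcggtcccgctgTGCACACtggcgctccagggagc
Mt2: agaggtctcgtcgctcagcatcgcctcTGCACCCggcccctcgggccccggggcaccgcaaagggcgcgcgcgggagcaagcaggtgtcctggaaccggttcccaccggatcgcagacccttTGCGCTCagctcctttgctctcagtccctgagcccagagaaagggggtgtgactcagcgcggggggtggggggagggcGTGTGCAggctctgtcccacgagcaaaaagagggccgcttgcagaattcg
Mt3: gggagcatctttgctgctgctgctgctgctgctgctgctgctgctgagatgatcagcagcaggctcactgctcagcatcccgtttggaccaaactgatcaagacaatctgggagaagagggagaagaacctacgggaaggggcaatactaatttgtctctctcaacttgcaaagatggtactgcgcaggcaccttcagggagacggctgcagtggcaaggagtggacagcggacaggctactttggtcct
The core was found 1 time before Mt1, 3 times before Mt2 and 0 times before Mt3. Of 32851 mouse promoters of the same length, 21.4% hold at least 1 match and 5.17% hold at least 2, so that single matches are common. When the 50 bases after the start were added, the counts were 3, 4 and 1. The antioxidant response element core, TGACNNNGC, occurs 1 time before Mt2 and in 10.2% of promoters. The GC box GGGCGG, a site type of SP1, occurs 2 times before Mt1 and in 32.7% of promoters. None of these 3 stretches of 250 bases holds the E-box CACGTG, found in 6.02% of promoters, or TATAAA, found in 12.4%. All counts depend on the annotated start that was used. For Mt1, cores of the metal response element also lay at offsets 2 and 20 after that start. Bases beyond the first 50 after the start were not searched, so that absence here does not mean absence from the promoter of a gene. No matched stretch overlapped another in these sequences. GC content was 58.8% for Mt1, 67.6% for Mt2 and 54.8% for Mt3, against a median of 52.4%. These matches are letters only, and binding was not measured.

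Sequencing depth over the listed genes ran from 20832009 to 25313902 reads for ROS+ libraries. It ran from 18325361 to 23454022 for ROS++ and was lowest, 12704227 to 20998589, for ROS+++. The labels describe all cells as Nestin-positive precursors, and this was checked by lists of markers, given as the range of the summed level per library in CPM, the reads of a gene per 1000000 reads over all listed genes. The neuronal precursor list (Dcx, Neurod1, Sox11 and others) held 11270 to 16683 CPM in ROS+ libraries. It held 967 to 2384 CPM in ROS++ libraries and 36.6 to 199 CPM in ROS+++ libraries. Sox11 was its largest member in ROS+, at a mean of 8984 CPM. Eomes, also on the list, averaged 46.6, 68.8 and 0.18 CPM in ROS+, ROS++ and ROS+++, and so was not lower in ROS++. The mural list (Pdgfrb, Rgs5, Acta2 and others) held 17.9 to 514 CPM, 7724 to 23964 and 52405 to 61009 in the same order, and the microglia and macrophage list 2.86 to 15.9, 848 to 2243 and 633 to 2831. The oligodendrocyte list held 1965 to 5464 CPM, 1989 to 10976 and 517 to 697 in that order. Neuronal precursor transcripts were thus scarce in the library class with the strongest dye signal, where mural transcripts were abundant. No gene of any list was at 0 in every library, and the 5 choroid plexus genes were not analysed here.

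All 3 metallothioneins were low in ROS+ and several times higher in both other classes. Mt1 had the highest read level. Its CPM in ROS+ replicates 1 to 5 were 119, 132, 105, 164 and 112. In ROS++ they were 670.2, 919, 779, 713 and 556, and in ROS+++ replicates 1 to 4 they were 519, 733, 379 and 966. Every ROS++ and every ROS+++ library thus lay above every ROS+ library, while ROS++ and ROS+++ overlapped. The class means were 126 ± 23.1 CPM (SD, n = 5), 727 ± 134 (n = 5) and 649 ± 256 (n = 4).

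Mt2, the closest relative of Mt1 in sequence, had the lowest CPM of the 3 in every library. Its ROS+ libraries measured 26.8, 32.7, 25.3, 54.5 and 24.1 CPM, its ROS++ libraries 175, 248.5, 213, 181 and 119.9 CPM, and its ROS+++ libraries 130.4, 153, 70.9 and 243 CPM. The lowest ROS+++ library, 70.9 CPM, stood only a little above the highest ROS+ library, 54.5 CPM. The class means were 32.7 ± 12.6 CPM (SD, n = 5), 188 ± 47.8 (n = 5) and 149 ± 71.2 (n = 4).

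Mt3, the neural member, measured 56.6, 75.8, 50.9, 77.5 and 52.7 CPM in the ROS+ libraries. The ROS++ libraries held 242, 395, 324, 283 and 235 CPM, and the ROS+++ libraries 214, 273, 117 and 334 CPM. Its ROS+ libraries lay below every other library, and ROS++ and ROS+++ overlapped. The class means were 62.7 ± 12.9 CPM (SD, n = 5), 296 ± 65.8 (n = 5) and 234 ± 92.5 (n = 4). The plot of CPM by library shows the same order of classes for each gene.

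**Figure D1:**
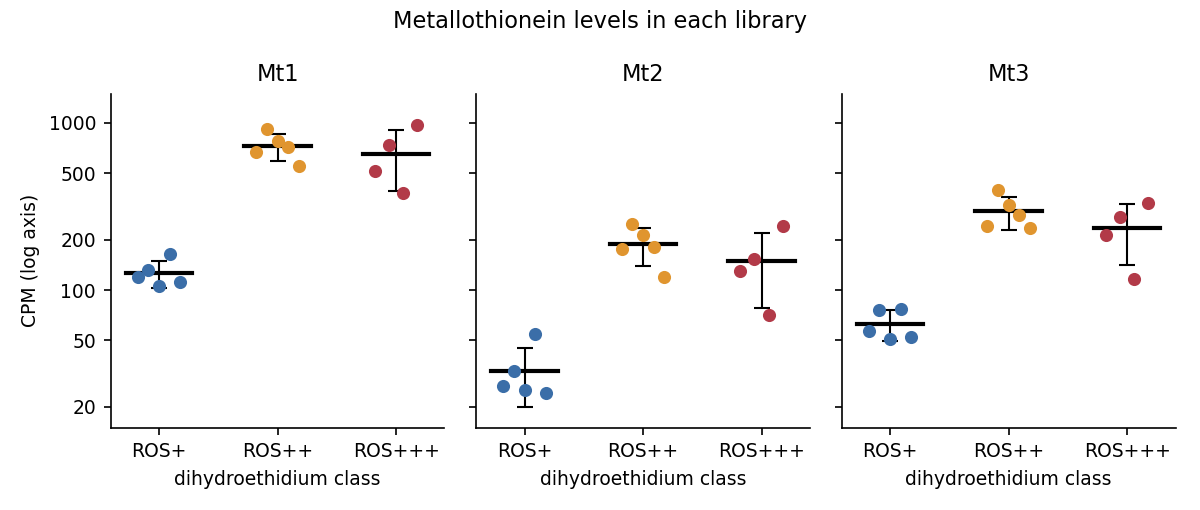
CPM of Mt1, Mt2 and Mt3 (log axis) in each of the 14 libraries by class, 1 point per library, with the class mean as a bar and its SD. In each panel the 5 ROS+ libraries lie below all 9 others, and the ROS++ and ROS+++ libraries overlap.

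The 3 genes moved together from library to library within a class. ROS+ replicate 4, ROS++ replicate 2 and ROS+++ replicate 4 were the highest of their class for all 3, and ROS++ replicate 5 and ROS+++ replicate 3 the lowest. The summed CPM was 222 ± 47.2 in ROS+, 1211 ± 245 in ROS++ and 1033 ± 417 in ROS+++. ROS+++ libraries spread more: the coefficient of variation of the sum was 40.4%, against 20.3% in ROS++ and 21.3% in ROS+.

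To compare levels between genes, CPM were divided by the length of the main transcript, 549 bases for Mt1, 511 for Mt2 and 536 for Mt3. Per kilobase, Mt1 was the most abundant in each class, at 230.2, 1325 and 1183 CPM per kb in ROS+, ROS++ and ROS+++. Mt3 followed with 117, 552 and 437 CPM per kb, and Mt2 with 64.0, 367 and 292. Mt1 made up 56.3% ± 2.03, 59.2% ± 1.22 and 62.2% ± 2.83 of the family level per kb in ROS+, ROS++ and ROS+++, Mt3 28.5% ± 1.93, 24.6% ± 1.37 and 22.8% ± 1.86, and Mt2 15.2% ± 2.40, 16.2% ± 1.32 and 14.9% ± 1.60 (SD). The order Mt1, Mt3, Mt2 held in all 3 classes on this scale.

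The comparison of ROS++ with ROS+ asks whether the family differs between cells of moderate and low dye signal. On the log2(CPM + 1) scale Mt1 rose by 2.51 ± 0.20 (SE), a fold of 5.71 with a 95% interval of 4.26 to 7.66 (limma adjusted p = 4.64e-08). Mt2 rose by 2.51 ± 0.28, a fold of 5.70 with an interval of 3.77 to 8.61 (adjusted p = 2.46e-06). Mt3 rose by 2.22 ± 0.23, a fold of 4.65 with an interval of 3.33 to 6.49 (adjusted p = 9.18e-07). Calls were made at a Benjamini-Hochberg adjusted p under 0.05 over 15102 genes tested, of which 29.6% were called in this comparison, 16.4% higher and 13.2% lower. In 12.1% of genes every ROS++ library lay above every ROS+ library, as for all 3 metallothioneins. The libraries are bulk RNA of sorted cells, so that fewer cells of a type and less RNA per cell cannot be told apart.

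In CPM, each transcript was also higher in ROS+++ libraries than in ROS+ libraries. Mt1 rose by 2.28 ± 0.21, a fold of 4.87 (interval 3.56 to 6.64, adjusted p = 7.42e-08). Mt2 rose by 2.09 ± 0.30, a fold of 4.26 (interval 2.75 to 6.61, adjusted p = 1.16e-05), and Mt3 by 1.81 ± 0.24, a fold of 3.5 (interval 2.46 to 4.99, adjusted p = 5.54e-06). In this comparison 59.2% of genes were called, 19.2% higher and 40.0% lower, so that being called is common, while 16.8% of genes had every ROS+++ library above every ROS+ library. The exact two-sided permutation test over libraries gave p = 0.00794 for each gene in both comparisons, the smallest p these designs allow.

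Between ROS+++ and ROS++ no metallothionein passed the limma test, and 0 of 3 had an unadjusted p under 0.05 there or in the exact permutation test (p = 0.437, 0.294 and 0.27). Differences were −0.23 ± 0.21 for Mt1 (95% interval −0.68 to 0.22, adjusted p = 0.414), −0.42 ± 0.30 for Mt2 (−1.05 to 0.21, adjusted p = 0.287) and −0.41 ± 0.24 for Mt3 (−0.92 to 0.10, adjusted p = 0.196). As a ratio of ROS+++ to ROS++, the Mt1 interval runs from 0.624 to 1.16, and a p that misses the threshold does not show equal levels. In this comparison 39.1% of genes were called, 9.89% higher and 29.2% lower. The sign depended on scaling: with factors from the TMM, relative log expression and upper-quartile methods the Mt1 difference was 0.10, 0.19 and 0.05, and Mt3 was 0.01 with the second. These scalings shift the median of all genes by 0.25 to 0.37 in this comparison, by 0.27 to 0.40 in ROS+++ against ROS+, and by at most 0.04 in ROS++ against ROS+. The rise over ROS+ held with every scaling, and the plot of changes shows all 9 differences.

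**Figure D2:**
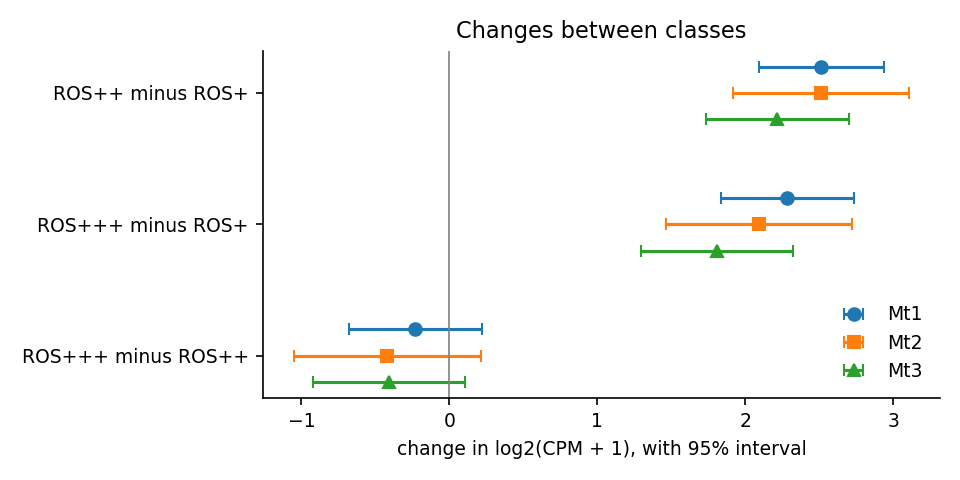
Difference in log2(CPM + 1) between classes for Mt1, Mt2 and Mt3 in the 3 comparisons, with 95% intervals. The 6 differences from ROS+ lie between 1.81 and 2.51, and the 3 intervals for ROS+++ minus ROS++ include 0, with signs that change under other scalings for Mt1 and Mt3.

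Mt3 rose less than Mt1. The log2 ratio of Mt3 to Mt1 within a library, taken on CPM + 1, was −1.005 ± 0.12 in ROS+, −1.30 ± 0.10 in ROS++ and −1.48 ± 0.17 in ROS+++ (SD), or a linear ratio of 0.500, 0.406 and 0.360. The exact permutation test gave p = 0.00794 for ROS++ against ROS+ and for ROS+++ against ROS+, each with an adjusted p of 0.0357 over 9 ratio tests. The difference between ROS+++ and ROS++, −0.18, missed the threshold in the exact permutation test (adjusted p = 0.186). Both calls missed the threshold when any ROS+ library, or any ROS+++ library, was left out, with adjusted p of 0.0643 to 0.129 in the exact permutation test. In ROS+++ against ROS+ the smallest possible p of this test is larger with fewer libraries. In ROS++ against ROS+ it stays at 0.00794 without 1 ROS+ or 1 ROS+++ library, and the adjusted p also depends on the other ratio tests.

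The ratio of Mt1 to Mt2 did not pass between any pair of classes. Its log2 mean was 1.97 ± 0.24 in ROS+, 1.97 ± 0.14 in ROS++ and 2.16 ± 0.21 in ROS+++, with adjusted p of 0.976, 0.337 and 0.226 in the exact permutation test. The ratio of Mt3 to Mt2, 0.96 ± 0.27 in ROS+, 0.67 ± 0.18 in ROS++ and 0.68 ± 0.16 in ROS+++, did not pass either (adjusted p of 0.186, 0.186 and 0.976). These ratios are of CPM and not per length, so that they compare how genes differ between classes and not their abundance.

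**Figure D3:**
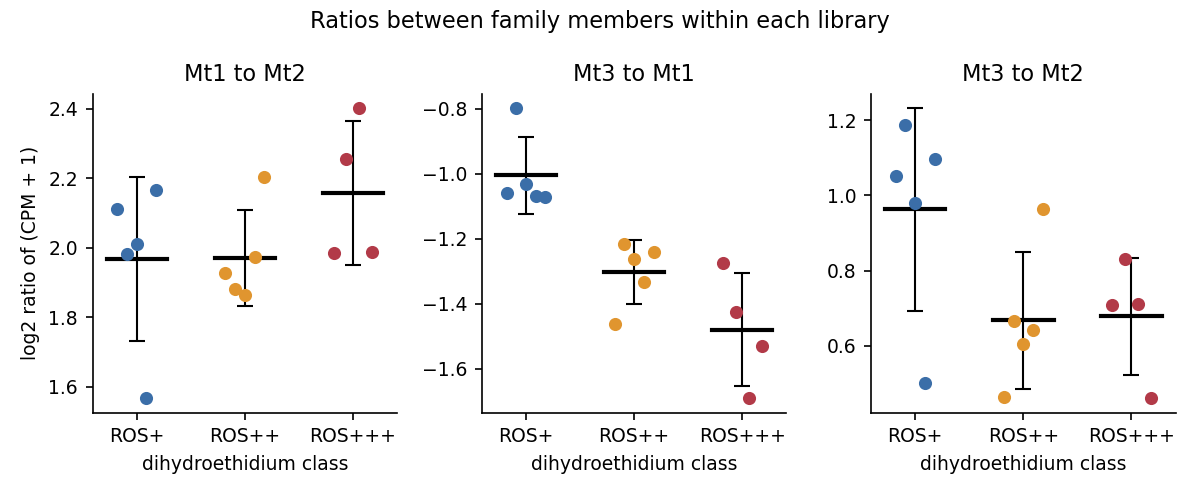
Log2 ratio of (CPM + 1) within each library for Mt1 to Mt2, Mt3 to Mt1 and Mt3 to Mt2, 1 point per library by class, with class means. The Mt3 to Mt1 ratio lies between −1.07 and −0.80 in ROS+ and between −1.69 and −1.22 in the 9 other libraries.

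The genes whose log2(CPM + 1) was most like each metallothionein over the 14 libraries were the other 2 for Mt1 and for Mt2, while for Mt3 Clu came before them. Pearson r was 0.989 for Mt1 and Mt3, 0.987 for Mt1 and Mt2, and 0.989 for Mt2 and Mt3, among 15101 other genes ranked for each. The next for Mt1 were Slc25a18, a mitochondrial carrier of glutamate (0.987), Clu, the secreted chaperone clusterin (0.982), and Mlc1, a membrane protein of astrocytes (0.982). Mt2 had Plpp3, a lipid phosphatase (0.984), and Clu (0.983). Clu was first for Mt3 (0.991), followed after Mt2 and Mt1 by Prdx6, a peroxidase (0.986). Slc25a18 measured 15.2 ± 6.58 CPM in ROS+, 150 ± 15.1 in ROS++ and 126 ± 66.1 in ROS+++, the same order of classes as for the family. These correlations describe 14 libraries in 3 classes that share a preparation.

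Within classes, the deviations from the class means were also ranked. Mt1 correlated with Mt2 at 0.961, with Mt3 at 0.955 and with Clu at 0.935. Mt2 correlated with Mt1 at 0.961, with Mt3 at 0.923 and with Cst3, the protease inhibitor cystatin C, at 0.923. Mt3 correlated with Mt1 at 0.955, with Clu at 0.948 and with Mt2 at 0.923.

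Markers of astrocytes and radial glia moved beside the metallothioneins. All 10 markers in the list rose in ROS++ over ROS+, among them Gfap by 4.82 ± 0.52, Aqp4 by 3.83 ± 0.61 and Mlc1 by 5.98 ± 0.44. In ROS+++ against ROS+, 9 rose and Fabp7, a fatty-acid binding protein of progenitors, fell by 1.00. Between ROS+++ and ROS++, 4 fell and none rose. Over all genes tested, 16.4% were called higher in ROS++ and 19.2% in ROS+++, each against ROS+. In ROS+++ against ROS++, 29.2% of all genes were called lower and 9.89% higher, and other scalings shift the median of all genes there by 0.25 to 0.37. The summed CPM of the list had a median of 1622 in ROS+ (range 1264 to 1899), 7848 in ROS++ (5919 to 8486) and 5292 in ROS+++ (2494 to 7248). The rank of the libraries by metallothionein sum matched their rank by this sum in 3 of 5 ROS+, 5 of 5 ROS++ and 4 of 4 ROS+++ libraries, and matched their rank by the mural sum in 0, 1 and 0 and by the microglia and macrophage sum in 3, 2 and 1. All 10 mural markers and all 10 microglia and macrophage markers also rose over ROS+ in both comparisons. Their median changes were 5.99 and 8.09 for the mural list and 6.07 and 5.26 for the microglia and macrophage list in ROS++ and ROS+++, beside 3.38 and 3.19 for the astrocyte and radial glia list. As a share of the astrocyte sum, the family sum ranged from 11.6% to 15.6% over ROS+ libraries, from 14.5% to 18.4% over ROS++ libraries and from 16.7% to 22.7% over ROS+++ libraries. The part of the astrocyte markers, or of any other cell type, in the rise of the metallothioneins was not tested.

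**Figure D4:**
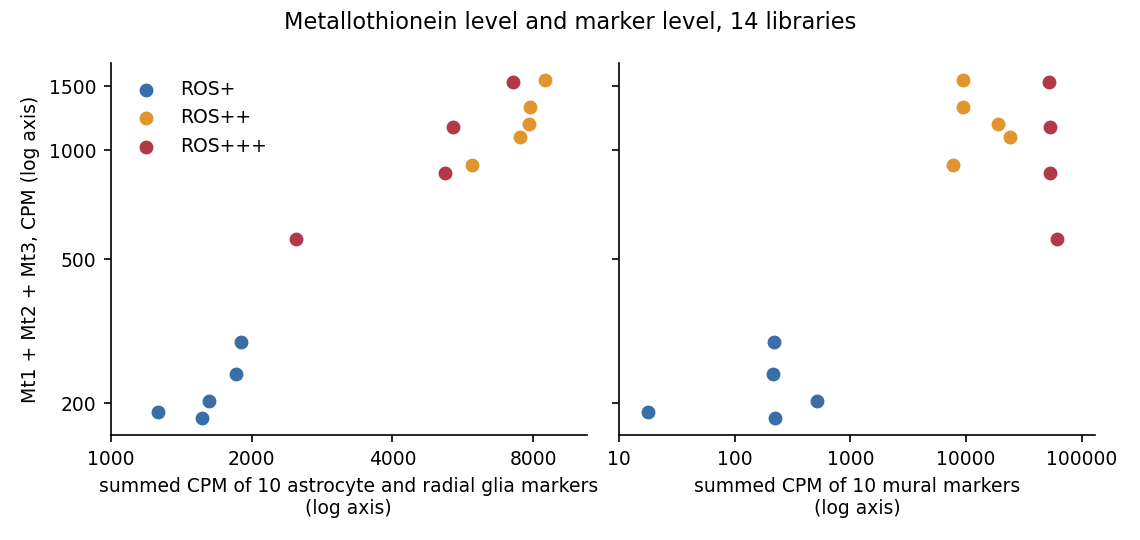
Summed CPM of Mt1, Mt2 and Mt3 against the summed CPM of 10 astrocyte and radial glia markers (left) and of 10 mural markers (right), both axes log, 1 point per library. On the left the 14 libraries form a rising band, with ROS+ at the lower end. On the right the ROS++ and ROS+++ libraries lie at like family sums and different mural sums.

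The 11 tested factors known to act in metal response or metallothionein induction were mixed. Mtf1, which encodes the zinc-sensing factor, measured 24.1 ± 4.30, 19.6 ± 3.03 and 15.2 ± 5.55 CPM in ROS+, ROS++ and ROS+++. It did not pass in ROS++ against ROS+ (−0.28 ± 0.26, adjusted p = 0.459). In ROS+++ against ROS+ its call at −0.70 ± 0.28 (adjusted p = 0.0386) was lost in 10 of 25 alternatives, where the adjusted p ranged from 0.0208 to 0.428. Nfe2l2, encoding the oxidant-responsive factor NRF2, rose by 1.71 ± 0.22 and 2.76 ± 0.23 over ROS+, from 26.8 ± 6.80 to 92.5 ± 27.4 and 184 ± 12.0 CPM. Nr3c1, encoding the glucocorticoid receptor, rose by 0.92 ± 0.16 and 1.04 ± 0.17, and Usf1, an E-box factor, fell by 0.94 in ROS++. In all, 3 rose and 2 fell in ROS++ against ROS+, 4 rose and 3 fell in ROS+++ against ROS+, and 2 rose and 1 fell in ROS+++ against ROS++, beside 29.6%, 59.2% and 39.1% of all genes called. Stat3 fell by 0.62 in ROS++, and this call was lost in 5 of 25 alternatives. Without ROS+ replicate 5 the first count was 3 in all, without ROS+++ replicate 4 the second was 4, and with relative log expression factors the third was 6. With each of the 3 scaling factors the second comparison had 4 higher and 1 lower.

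Zinc exporters and importers were called in both directions. Of 8 exporters, 1 rose and 1 fell in ROS++, and 1 rose and 2 fell in ROS+++, each against ROS+. Slc30a1, the zinc exporter of the plasma membrane that MTF-1 is known to induce, measured 8.97 ± 1.86, 9.17 ± 4.47 and 14.1 ± 8.14 CPM and did not pass (−0.09 ± 0.42 and 0.41 ± 0.45, adjusted p = 0.896 and 0.445). The exporter that rose was Slc30a10, better known for manganese, by 2.43 ± 0.34 and 4.52 ± 0.37. Of 12 importers, 2 rose and none fell in ROS++, and 3 rose and 7 fell in ROS+++ against ROS+. Over all genes tested, 29.6% were called in the first of these comparisons (16.4% higher), and 59.2% in the second (19.2% higher and 40.0% lower). Slc39a12, a brain zinc importer, rose by 3.89 ± 0.44 and 4.68 ± 0.47, from 0.90 ± 1.23 CPM in ROS+. Slc39a6 fell by 1.63 and Slc39a10 by 1.03 in ROS+++ against ROS+. With scaling factors the importers had 4 higher and 5 or 6 lower in that comparison. The exporter count in ROS++ fell from 2 to 1 without any of 7 libraries (ROS+ replicates 2 to 5 and ROS++ replicates 1, 4 and 5), and the importer count fell to 1 in 12 alternatives, 9 of which left out a library.

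Copper-handling genes were divided. Of 15, 6 rose and 1 fell in ROS++ against ROS+, 6 rose and 5 fell in ROS+++ against ROS+, and 3 rose and 4 fell in ROS+++ against ROS++. The shares called over all genes were 29.6%, 59.2% and 39.1%. With each of the 3 scaling factors the first comparison had 6 higher and 0 lower, and the second had 7 higher and 4 lower. Cox11, the gene that fell in ROS++ against ROS+, lost its call in 14 of 25 alternatives. With scaling factors the last comparison had 3 to 5 higher and 1 or 2 lower, more higher than lower. Cp, the copper ferroxidase ceruloplasmin, rose by 1.29 ± 0.16 and 2.58 ± 0.16 over ROS+, and Steap3, a metal reductase, by 3.34 ± 0.35 and 4.62 ± 0.37. Ccs, the copper chaperone of superoxide dismutase, rose by 1.07 ± 0.13 and 1.09 ± 0.14. Atp7b, a copper-exporting ATPase, fell by 2.37 in ROS+++ against ROS+, and its relative Atp7a rose by 1.19 ± 0.25 over ROS++.

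The lists for glucocorticoid response and for cytokine signalling through STAT3 had higher medians than all genes tested. The second list holds receptors and kinases of the pathway, Osmr and Jak1 among them, beside genes that respond to it. Of 15 glucocorticoid genes, 5 rose and none fell in ROS++, and 8 rose and 1 fell in ROS+++, each against ROS+. Their medians were 0.62 and 1.56, beside −0.03 and −0.44 over all genes tested. Of all genes tested, 16.4% were called higher and 13.2% lower in ROS++, and 19.2% and 40.0% in ROS+++, against ROS+. Without ROS+ replicate 3, the count of glucocorticoid genes called in ROS++ was 3. Dusp1, an immediate early phosphatase, rose by 2.55 ± 0.26 and 4.35 ± 0.27, and Tsc22d3, a glucocorticoid-induced leucine zipper gene, rose by 1.56 ± 0.14 in ROS+++. Gpd1, a glycerol-3-phosphate dehydrogenase, fell by 2.61 in ROS+++. Of 14 STAT3 genes, 6 rose and none fell in ROS++, and 9 rose and 1 fell in ROS+++, with medians of 0.77 and 1.38. Osmr, the oncostatin M receptor, rose by 3.58 ± 0.42 and 5.25 ± 0.45, and Cebpb by 2.75 ± 0.39 and 4.10 ± 0.42. Serpina3n fell by 3.75 in ROS+++, and its reads may be shared with near-identical paralogs. In ROS+++ against ROS++, 6 glucocorticoid genes rose and 2 fell, and 4 STAT3 genes rose and 1 fell. Over all genes tested, 9.89% were called higher and 29.2% lower there. The 2 glucocorticoid genes that fell were Gpd1 by 3.57 and Fkbp5 by 1.06, and the Fkbp5 call was lost in 9 of 24 alternatives. Dusp1 is also among the 14 dissociation stress and immediate early genes, of which 11 rose in ROS++ and 14 in ROS+++ over ROS+. Their summed CPM ranged from 641 to 957, from 1708 to 3927 and from 11529 to 16053, and their part in these counts was not tested. Lrp1, an uptake receptor for metallothionein, did not pass in any comparison without scaling factors, at 282 ± 29.9, 337 ± 50.1 and 274 ± 39.3 CPM. Its difference in ROS+++ against ROS+ depended on scaling. It was −0.05 without factors, 0.25 and not called with upper-quartile factors, and 0.33 and 0.39 and called with TMM and relative log expression factors.

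**Figure D5:**
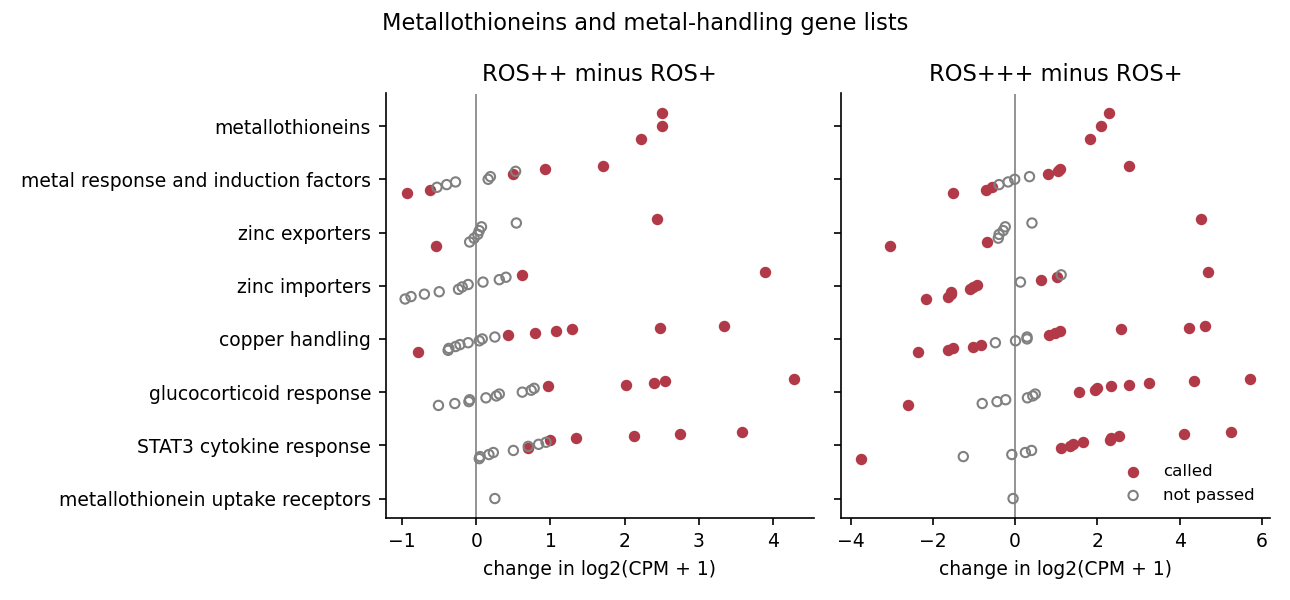
Differences in log2(CPM + 1) of the genes in the metal, induction and response lists against ROS+ for ROS++ and ROS+++, 1 point per gene, with called genes filled and separate scales for the 2 panels. The 3 metallothioneins lie above 1.8 in both comparisons, while the factor list and both zinc lists hold genes on both sides of 0 in each panel.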

How the data were processed

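RNA-seq of 14 sorted libraries was analysed from 1 deposited table. The authors deposited log2 values for 15119 genes, which the values show to be logarithms of reads per library total with a small prior, the lowest being -4.36. STAR, edgeR and the build mm10 are named in the submitters' processing notes. Their roles and versions, the read counter and its gene models were not stated in the labels or the table. Per the labels' protocols, poly-dT cDNA was amplified, so that reads are not independent molecules and strand is not recorded. Whole reads were recovered from all values (100% within 0.01 reads) and scaled to library totals as CPM.

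Because the unit is log2, limma-trend (limma 3.58.1, statmod 1.5.0, R 4.3.3) with robust moderation was fitted to log2(CPM + 1), with a pseudocount of 1 CPM. Genes with at least 1 CPM in 4 libraries were kept (15102, with 17 removed). A single model had 3 class means and 11 residual degrees of freedom. Benjamini-Hochberg adjusted p-values cover all tested genes, calls are under 0.05, and each "adjusted p" for a gene is from this fit. The plan foresaw a count test for deposited counts and limma-trend for log2 values, and the second was used. Ratios and single genes were also tested by exact two-sided permutation over libraries. At 95% confidence a count of 0 allows up to 3 reads. Replicate numbers follow sample order and pair nothing. The fit was tested on simulated data. The members, lists and tests were chosen with earlier results of these data known. Named list genes were Mtf1, Slc30a1, Nr3c1, Stat3 and, from each list, comparison and direction, up to 3 called genes with the smallest adjusted p, of which examples are given. Like genes were the 5 with the highest correlation, or 3 for deviations. Fabp7 and Lrp1 were named after their values were seen. Alternatives were 3 scalings, another pseudocount, the deposited values, 2 filters, voom on recovered reads, moderation without the robust setting, pairwise fits, sets of adjacent library numbers, and omission of each library. Coordinates and coding sequences are from GENCODE M21 and promoters from RefSeq GRCm38.p6. All 3 genes matched both.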

Additional observations from a re-analysis of the deposited data

Results flagged for a closer look

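In 1 of 18 groups of libraries tested, a library stood far from the others. The log2 ratio of Mt3 to Mt1 in ROS+ replicate 2 was −0.80, while the other 4 ROS+ libraries lay between −1.07 and −1.03. The gap was 0.854 of the range, above the critical value of 0.71 for a group of 5. Chance flags about 1 group in 20. Without this library the ratio still fell in both comparisons with ROS+, by 0.25 in ROS++ and by 0.42 in ROS+++, with adjusted p of 0.0714 and 0.129 in the exact permutation test.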

How the results depend on the processing

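Mt1, Mt2 and Mt3 stayed called higher than ROS+ in both comparisons under each of 26 alternatives, with Mt1 between 2.42 and 2.61 in ROS++ and between 2.06 and 2.72 in ROS+++. Between ROS+++ and ROS++ none was called under any alternative, but the Mt1 difference turned to 0.10, 0.19 and 0.05 with TMM, relative log expression and upper-quartile factors, and Mt3 to 0.01 with the second. These factors also moved the share of called genes that were higher from 32.5% to 47.9%, 50.6% and 43.9% in ROS+++ against ROS+, and from 25.3% to 46.4%, 52.2% and 42.4% against ROS++. The Mt1 to Mt2 ratio in ROS++ against ROS+ was −0.02 with a pseudocount of 0.25 CPM and −0.03 with the deposited values. With 1 library left out this ratio ran from −0.10 to 0.05, Mt3 to Mt1 from −0.32 to −0.25 and, in ROS+++, from −0.54 to −0.40, and Mt3 to Mt2 in ROS+++ against ROS++ from −0.04 to 0.08. For genes not called, leaving out 1 library gave −0.00 to 0.21 for Nr3c1 and −0.12 to 0.20 for Stat3 in ROS+++ against ROS++, and −0.26 to 0.21 for Slc30a1 in ROS++ against ROS+. Scaling moved the first 2 further: with relative log expression factors Nr3c1 was 0.53 and became a call (limma adjusted p = 0.0241), and Stat3 was 0.48 and did not pass (adjusted p = 0.107). Of 72 calls of named list genes, 54 were kept in every alternative and 18 were lost in at least 1. The cause of these changes was not tested. The labels give the classes no shared replicate numbers. With sets of adjacent library numbers as a term, which no label ties to an animal or day, Mt1 was 2.51 higher in ROS++ and 2.26 higher in ROS+++ than in ROS+, and no call of a member changed. The lower depth of ROS+++ does not limit the members, which held at least 514 reads in each library.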

Other observations

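The nearest listed protein-coding genes on either side of the cluster did not share the rise in ROS++. Ogfod1, a prolyl hydroxylase gene, and Bbs2, a cilium gene, lie before Mt3, and Nup93, a nuclear pore gene, and Herpud1, a stress gene of the endoplasmic reticulum, lie after Mt1. In ROS++ against ROS+ they measured −0.41 ± 0.26, 0.11 ± 0.29, 0.04 ± 0.24 and 0.19 ± 0.16 on the log2(CPM + 1) scale, and limma called none, nor had any an unadjusted p under 0.05 (adjusted p of 0.26, 0.824, 0.928 and 0.39). In ROS+++ against ROS+ Bbs2 rose by 0.93 ± 0.31 and Herpud1 by 0.62 ± 0.17, while Ogfod1 fell by 0.87 and Nup93 fell by 0.81 (adjusted p of 0.0159, 0.00384, 0.0114 and 0.0118). Over all genes tested, 29.6% were called in ROS++ against ROS+, 16.4% higher, so that not being called there is common. In ROS+++ against ROS+, 59.2% were called. These 4 genes were chosen by position, and the alternatives were not run for them.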
